A study of Mus musculus with 10 samples.

Results

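AMP-activated protein kinase (AMPK) is the energy sensor of the cell, and the transcripts of its subunits and of the kinases that switch it on were examined in mouse blood after metformin. The set has 9 genes, chosen by name as the subunits of AMPK and its main upstream kinases. Of these, 6 had a row among the 8904 genes of the expression table. They were the beta subunits Prkab1 and Prkab2, the gamma subunits Prkag1 and Prkag2, and the upstream kinases Stk11 and Camkk2. The catalytic alpha subunits Prkaa1 and Prkaa2 and the third gamma subunit Prkag3 were not analysed here, so nothing below concerns the catalytic subunit of the enzyme.

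AMPK is a trimer of a catalytic alpha, a scaffolding beta and a nucleotide-binding gamma subunit. When ATP runs low, AMP and ADP bind the gamma subunit, and the enzyme is activated by phosphorylation of the alpha subunit. STK11 (LKB1) is the main kinase for this step, and CAMKK2 carries it out in response to calcium. Active AMPK slows lipid and protein synthesis and promotes fuel oxidation and autophagy. Metformin is a diabetes drug known to inhibit complex I of the respiratory chain and to activate AMPK in many cells. Activation of AMPK is a change in phosphorylation, which RNA levels do not measure.

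Blood RNA was sequenced from 5 control mice given phosphate-buffered saline (PBS) and 5 mice given metformin for 30 days. All mice were adult C57BL/6 animals, 8 months old, and the labels name no other allele or agent. The general dose of the experiments was 5 mg/kg every 2 days, and the dose and route of these animals were not stated separately. Values were log2 FPKM (fragments per kilobase of transcript, scaled to the mapped fragments) on a scale with an unstated offset, so 1 unit is close to a doubling only for well expressed genes.

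The libraries differed in the cells or tissues they held. Controls 1 and 5 were rich in heart muscle transcripts: the 17 heart markers averaged log2 7.31 and 7.65 there and 0.20 to 1.64 in the other 8 libraries. In both of these controls Myl2, the ventricular myosin light chain, was the highest gene of the table at 12.48, and the 16 measured erythroid markers averaged 0.47 and 1.63, against 3.87 to 4.81 in controls 2 to 4 and 4.82 to 5.16 with metformin. Fast skeletal muscle markers (16 measured) averaged 4.27 to 4.88 with metformin and 0.38 to 0.54 in controls 2 to 4. The 16 measured leukocyte markers averaged 1.29 to 2.09 with metformin and 2.84 to 3.62 in controls 2 to 4. The 8 platelet markers averaged 5.16 to 6.31 in control 3 and metformin 1, 3, 4 and 5, and 0.31 to 2.56 in the other 5 libraries. In metformin 2 the platelet markers Treml1 and Clec1b were at the lowest value of that library, and Pf4, Ppbp and Itga2b were at 1.07, 1.01 and 1.19. Metformin was therefore compared with all 5 controls and, separately, with controls 2 to 4. The choice of controls 2 to 4 rests on measured transcripts and not on a label, and both comparisons share these 3 controls and all metformin libraries. In such bulk samples fewer cells of a type and less RNA per cell cannot be told apart.

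**Figure D1:**
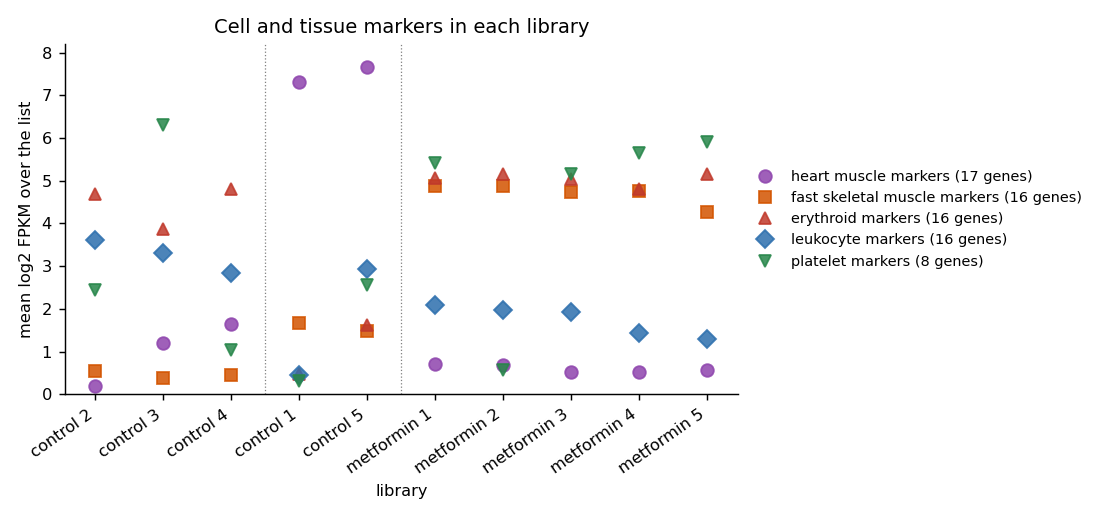
Mean log2 FPKM of the marker lists for heart muscle, fast skeletal muscle, erythroid cells, leukocytes and platelets in each of the 10 libraries. Controls 1 and 5 stand at 7.31 and 7.65 for heart muscle, the metformin libraries at 4.27 to 4.88 for fast skeletal muscle, and control 3 and 4 of the 5 metformin libraries above 5 for platelets.

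None of the members passed the threshold (adjusted p under 0.05, limma) in either comparison. Against all 5 controls, 4 members were expressed highly enough to be tested and 0 of them were called, where 7.32 percent of all 3442 genes tested were called. Against controls 2 to 4, 5 members were tested and 0 were called, where 15.8 percent of 4026 genes were called. At an unadjusted p under 0.05 there was 1 member, Prkab2, in the first comparison and 0 in the second, beside 28.8 and 29.7 percent of all genes. For no member did the 2 groups of values lie apart without overlap, in either comparison, and 10.9 and 23.1 percent of all genes tested did so (5.69 percent higher and 5.23 percent lower in the first comparison, 9.14 and 14.0 percent in the second). The median log2 difference, metformin minus control, was -0.04 over the 4 tested members and 0.01 over all genes in the first comparison, and 0.12 and 0.05 in the second. With 4 or 5 genes such shares say little about the set as a whole, and the values of each gene follow.

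The members differed among themselves mainly by library. Stk11 was the highest of the 6 in all 10 libraries, and the order of the others changed from library to library. The promoters of the genes with the widest spread between libraries, Prkab2 and Stk11, are shown because both genes are described below by the libraries in which they were high. Each is 300 bases long, from 250 bases before to 50 bases after the RefSeq start, on the plus strand of GRCm38.p6, at chr3:97657962-97658261 for Prkab2 and chr10:80115545-80115844 for Stk11. Capitals mark the CCAAT box (CCAAT) and the GC box (GGGCGG), searched on both strands.

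Prkab2 promoter: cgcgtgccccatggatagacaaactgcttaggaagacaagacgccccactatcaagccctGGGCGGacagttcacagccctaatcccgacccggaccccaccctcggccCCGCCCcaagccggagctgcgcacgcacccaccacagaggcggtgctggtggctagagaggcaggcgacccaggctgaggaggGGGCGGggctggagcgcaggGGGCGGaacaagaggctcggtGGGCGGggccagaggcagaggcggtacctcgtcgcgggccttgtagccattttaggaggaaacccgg

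Stk11 promoter: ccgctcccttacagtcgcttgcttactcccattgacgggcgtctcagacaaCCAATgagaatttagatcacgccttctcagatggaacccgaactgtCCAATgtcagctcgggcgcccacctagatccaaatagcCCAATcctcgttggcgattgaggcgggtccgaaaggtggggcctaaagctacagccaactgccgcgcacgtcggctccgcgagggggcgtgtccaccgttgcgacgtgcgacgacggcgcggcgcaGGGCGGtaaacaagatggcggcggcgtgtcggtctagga

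The Prkab2 promoter held 5 GC boxes and 0 CCAAT boxes, and the Stk11 promoter 1 GC box and 3 CCAAT boxes. Of 32851 RefSeq promoters of the same length, 35.7 percent held a GC box and 37.4 percent a CCAAT box. These matches are letters in a window and not measured binding sites.

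**Figure D2:**
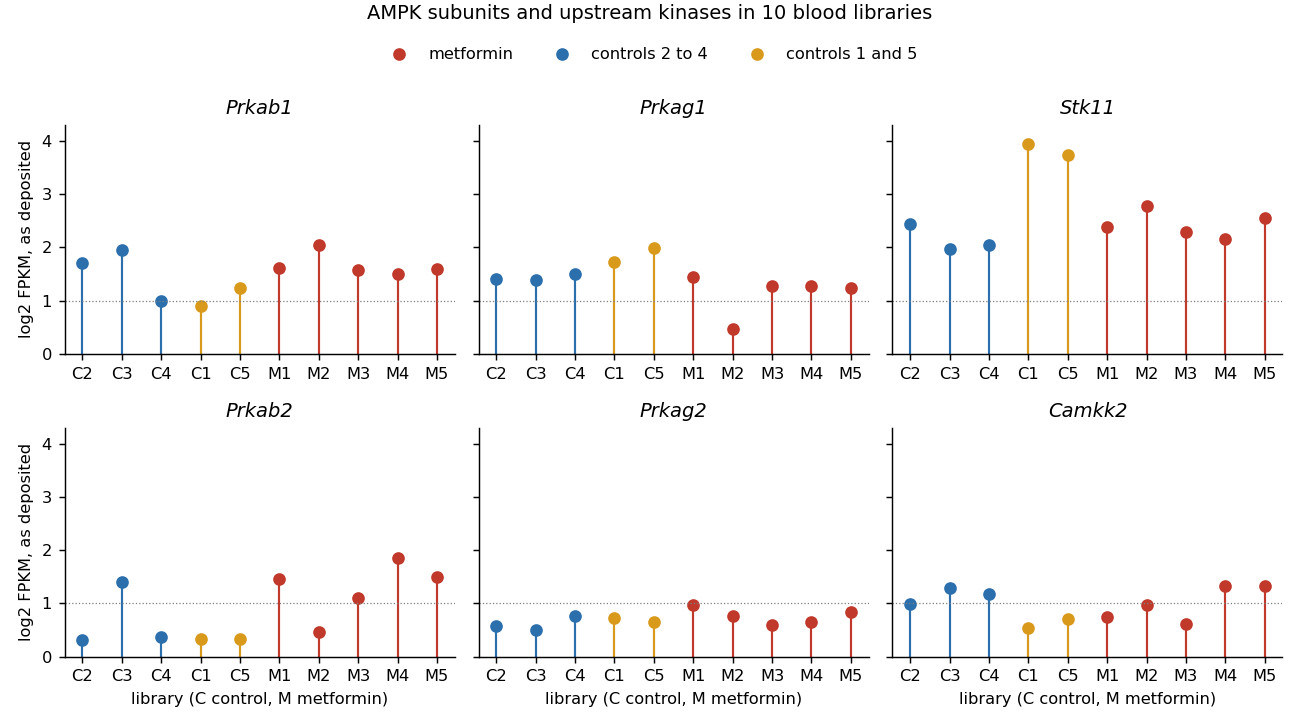
Log2 FPKM of the 6 measured genes in each library, with metformin, controls 2 to 4 and controls 1 and 5 in separate colours. A vertical line runs from the axis to each value, and the dotted line marks log2 1, the minimum used for testing. Stk11 stands at 3.73 to 3.94 in controls 1 and 5 and at 1.97 to 2.78 elsewhere, and Prkab2 is above 1 in control 3 and in metformin 1, 3, 4 and 5.

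Prkab2 encodes the beta 2 subunit, the form that predominates in skeletal muscle, and lies on chromosome 3 (97658193 to 97673812, plus strand, GRCm38). It was at log2 0.33, 0.31, 1.40, 0.37 and 0.33 in controls 1 to 5. In metformin 1 to 5 it was at 1.47, 0.47, 1.10, 1.85 and 1.50. The values thus formed a high and a low set: 4 metformin libraries and control 3 were high, and 4 controls and metformin 2 were low. The 3 metformin libraries 1, 4 and 5 lay above every control, and control 3 lay above metformin 2 and 3. The mean was 1.28 ± 0.526 with metformin and 0.55 ± 0.476 in all 5 controls (SD, n = 5 each). The difference of 0.73 (SE 0.280) had an unadjusted p of 0.0236 and an adjusted p of 0.129 by limma. Against controls 2 to 4, whose mean was 0.69 ± 0.612 (SD, n = 3), it was 0.59 (SE 0.334, adjusted p = 0.265). If the unstated offset is taken as 1 and replaced by 0.1, these differences become 1.54 and 1.22, with adjusted p of 0.131 and 0.248. Prkab2 reached log2 1 in exactly 5 libraries, the minimum for being tested, and 4 of these were metformin libraries. The fast skeletal muscle markers averaged 4.27 to 4.88 in all metformin libraries, 4.87 of it in metformin 2, where Prkab2 was low. They averaged 0.38 in control 3, where Prkab2 was high. The part of muscle content in Prkab2 was not tested.

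The high and the low set of Prkab2 were the libraries rich and poor in platelet markers. In the 5 libraries with a platelet marker mean above 5, Prkab2 was at 1.10 to 1.85, and in the other 5 at 0.31 to 0.47. Among the platelet-rich libraries, metformin averaged 1.48 ± 0.308 (SD, n = 4) and control 3 was at 1.40, inside the metformin range. Among the platelet-poor libraries, metformin 2 was at 0.47 and the controls averaged 0.33 ± 0.0265 (SD, n = 4). Controls 2 and 5, with intermediate platelet means of 2.44 and 2.56, had Prkab2 at 0.31 and 0.33. With the platelet marker mean as a covariate, an alternative chosen after seeing the data, the difference was 0.34 against all 5 controls (adjusted p = 0.231) and 0.32 against controls 2 to 4 (adjusted p = 0.214). Without control 3 the difference from all controls was 0.95, and Prkab2 passed the threshold (adjusted p = 0.0339). The genes tested were not chosen anew when a library was left out. Without control 3, Prkab2 reached log2 1 in 4 libraries, all with metformin, under the minimum of 5. This call therefore rests on a gene kept through the group where it was high. The 5 platelet-rich libraries include 4 of 5 metformin libraries and 1 of 5 controls, so treatment and platelet content largely went together.

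**Figure D3:**
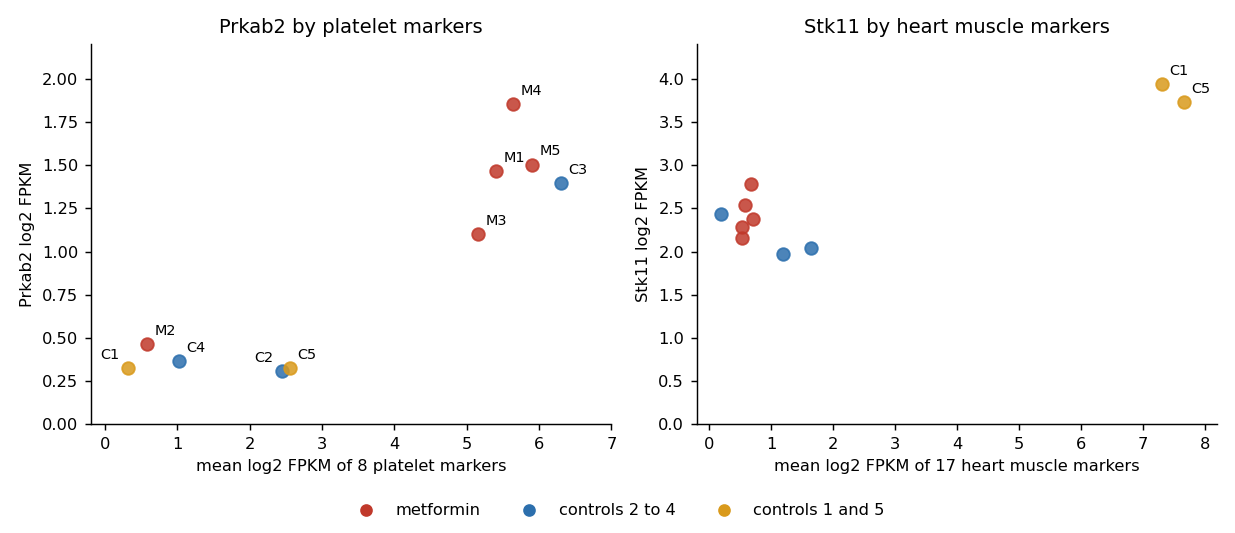
Left, log2 FPKM of Prkab2 against the mean of 8 platelet markers; right, Stk11 against the mean of 17 heart muscle markers, with each point a library. Prkab2 is at 1.10 to 1.85 in the 5 libraries with a platelet mean above 5 and at 0.31 to 0.47 in the others, and Stk11 is highest in the heart-rich controls 1 and 5.

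Among the genes expressed highly enough to be tested, Mdga1, Gnaz and P2ry1 had the patterns most like Prkab2 over the 10 libraries. The root mean square difference of their log2 values from those of Prkab2, each gene centred on its own mean, was 0.0956, 0.104 and 0.125. Gnaz encodes a G protein alpha subunit and P2ry1 an ADP receptor, and both are known from platelets. Mdga1, the closest gene, is not assigned to a cell type here. These genes were picked by their values in the same 10 libraries, so their likeness is no separate measure of platelet content.

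Prkab1 encodes the beta 1 subunit, the form common in liver and blood cells, and lies on chromosome 5 (116013586 to 116024508, minus strand). It was at 0.91, 1.71, 1.96, 0.99 and 1.23 in controls 1 to 5. In metformin 1 to 5 it was at 1.61, 2.05, 1.58, 1.50 and 1.60. Metformin 2, the metformin library lowest in Prkab2, was the highest in Prkab1, and the other metformin values lay close together and inside the control range. The mean was 1.67 ± 0.218 with metformin and 1.36 ± 0.458 in all controls (SD, n = 5 each), a difference of 0.31 (SE 0.232, adjusted p = 0.354). The difference from controls 2 to 4, at 1.55 ± 0.504 (SD, n = 3), was 0.12 (SE 0.239, adjusted p = 0.749), and it was -0.16 without control 4.

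FPKM is scaled by transcript length, so the levels of both beta subunits can be set side by side within a library. Prkab1 was above Prkab2 in 9 of 10 libraries, with a log2 level of Prkab2 minus that of Prkab1 from -1.59 to -0.0945. The exception was metformin 4, where Prkab2 was higher by 0.35. The 3 smallest gaps in favour of Prkab1 were in the platelet-rich metformin 1, 3 and 5, and the largest was in platelet-poor metformin 2. Control 3, also platelet-rich, was at -0.56, close to the platelet-poor controls 1 and 4 at -0.58 and -0.62.

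Prkag1 encodes the widely expressed gamma 1 subunit and lies on chromosome 15 (98812797 to 98831521, minus strand). It was at 1.73, 1.41, 1.38, 1.51 and 1.99 in controls 1 to 5. In metformin 1 to 5 it was at 1.45, 0.47, 1.27, 1.27 and 1.23. All metformin libraries but metformin 1 lay below every control, and controls 1 and 5, the heart-rich libraries, were the highest. The mean was 1.14 ± 0.385 with metformin and 1.60 ± 0.255 in all controls (SD, n = 5 each). The difference of -0.46 (SE 0.212) had an unadjusted p of 0.0504 and an adjusted p of 0.173. The difference from controls 2 to 4, at 1.43 ± 0.0651 (SD, n = 3), was -0.29 (SE 0.217, adjusted p = 0.390). Metformin 2 carried much of it, since without that library the differences were -0.30 and -0.13. The sign of Prkag1 also turned, to 0.36 and 0.37, when the libraries were centred on ribosomal protein genes, a scaling that moved the median of all genes to 0.84 and 0.72.

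Prkag2 encodes the gamma 2 subunit, whose mutations cause a heart muscle disease in humans, and lies on chromosome 5 (24862744 to 25100642, minus strand). It was low in every library, at 0.73, 0.57, 0.50, 0.76 and 0.65 in controls 1 to 5 and at 0.96, 0.77, 0.59, 0.65 and 0.84 in metformin 1 to 5. The groups overlapped, and the heart-rich controls 1 and 5 were not above the rest. Prkag2 stayed below the minimum of log2 1 in all libraries, and in the fit of all genes without that minimum its difference was 0.12 (SE 0.105, adjusted p = 0.496) from all controls and 0.15 (SE 0.124, adjusted p = 0.478) from controls 2 to 4. Prkag1 was above Prkag2 in 9 of 10 libraries, and only in metformin 2 was Prkag2 higher, by 0.30.

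Stk11 encodes LKB1 and lies on chromosome 10 (80115803 to 80130682, plus strand). It was at 3.94, 2.43, 1.97, 2.04 and 3.73 in controls 1 to 5. In metformin 1 to 5 it was at 2.38, 2.78, 2.29, 2.16 and 2.54. Controls 1 and 5 were far above all other libraries, and without them the metformin and control values overlapped. The mean was 2.43 ± 0.240 with metformin and 2.82 ± 0.943 in all controls (SD, n = 5 each), a difference of -0.39 (SE 0.420, adjusted p = 0.517). Against controls 2 to 4, at 2.15 ± 0.250 (SD, n = 3), the sign was the opposite, at 0.28 (SE 0.226, adjusted p = 0.427). With the heart marker mean as a covariate, chosen after seeing the data, the difference from all controls was 0.35 (adjusted p = 0.414). The sign for Stk11 thus differed with and without the heart-rich controls, and the gene passed the threshold in neither comparison.

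The genes most like Stk11 over the 10 libraries were Hint1, Idh3g and Pdhb, with root mean square differences of 0.137, 0.143 and 0.150. Idh3g encodes a subunit of the mitochondrial NAD-dependent isocitrate dehydrogenase and Pdhb a subunit of pyruvate dehydrogenase. For Prkab1 the closest genes were Rnf13 (0.196), Washc2 (0.199) and Rab7 (0.226), and for Prkag1 they were Gga1 (0.185), Mtx1 (0.189) and Csnk1g2 (0.194), all less close than the 3 genes of Prkab2 and of Stk11.

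Camkk2 encodes the calcium-dependent AMPK kinase and lies on chromosome 5 (122731170 to 122779409, minus strand). It was at 0.53, 0.98, 1.29, 1.18 and 0.70 in controls 1 to 5 and at 0.75, 0.97, 0.62, 1.33 and 1.32 in metformin 1 to 5. The groups overlapped over most of their range, and controls 1 and 5 were among the 4 lowest libraries. Camkk2 was below the minimum for testing against all controls, where its difference in the fit of all genes was 0.06 (SE 0.193, adjusted p = 0.863). From controls 2 to 4, at 1.15 ± 0.154 (SD, n = 3), it differed by -0.15 (SE 0.195, adjusted p = 0.607). Its level was below that of Stk11 in all 10 libraries, with log2 levels of Camkk2 minus Stk11 from -3.41 to -0.69 and the widest gaps in controls 1 and 5.

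**Figure D4:**
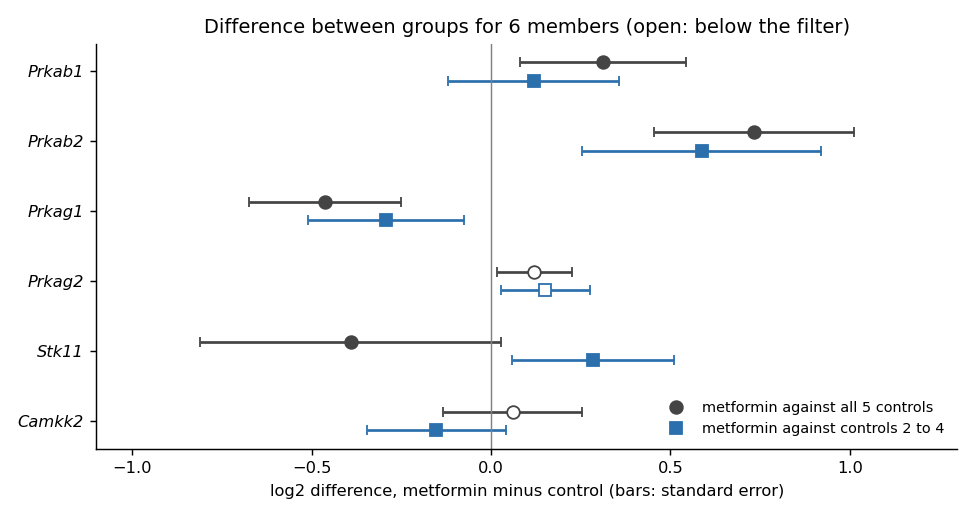
Log2 difference, metformin minus control, of each measured gene with its standard error, against all 5 controls and against controls 2 to 4; open points mark genes below the minimum for testing. Prkab2 has the largest difference in both (0.73 and 0.59), Stk11 changes sign (-0.39 and 0.28), and no gene passed the threshold.

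Genes around AMPK were described from lists of its other regulators, its substrates, the related kinases that LKB1 activates, enzymes of adenine nucleotides and the mTORC1 branch. Of 20 other regulators 17 were measured, and 0 of the 7 tested against all controls and 0 of the 8 tested against controls 2 to 4 passed, with list medians of 0.40 and 0.20. The smallest p belonged to Ppm1b, a phosphatase of the PP2C family, at 0.85 (SE 0.237, adjusted p = 0.0553) from all controls and 0.54 (SE 0.194, adjusted p = 0.0896) from controls 2 to 4. Ppm1a, of the same family, differed by 0.40 (adjusted p = 0.105), and Ppp2ca, the catalytic subunit of phosphatase PP2A, by 0.46 (adjusted p = 0.136), both from all controls. Of the 10 measured AMPK-related kinases, 2 and 3 were tested and 0 passed. Snrk differed by -0.33 (adjusted p = 0.238) and Mark2 by -0.15 from all controls. Of the 10 measured genes of the mTORC1 branch, 5 and 6 were tested and 0 passed, with Eif4ebp1, a repressor of translation that mTORC1 inactivates, at 1.08 from all controls (adjusted p = 0.140), Akt1s1, an mTORC1 inhibitor, at 0.30 (adjusted p = 0.254), and Rheb, its activator, at 0.18 (adjusted p = 0.581). Without control 3, Ppm1b passed in both comparisons (adjusted p = 0.0276 and 0.0468) and Eif4ebp1 passed against all controls (1.40, adjusted p = 0.0386).

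Of 39 genes of AMPK substrates, 34 were measured. Against all controls 1 of 13 tested fell and 0 rose, beside 3.11 percent of all genes lower. Against controls 2 to 4, 4 of 16 fell and 0 rose, beside 10.5 percent lower. Txnip, which restrains glucose uptake, fell in both, by 1.77 on the log2 scale (SE 0.436, adjusted p = 0.0352) and by 1.15 (SE 0.277, adjusted p = 0.0198). Trp53, which encodes the tumour suppressor p53, fell by 0.69 against controls 2 to 4 (adjusted p = 0.0120), and Cdkn1b, a cell cycle inhibitor, fell by 0.76 (adjusted p = 0.0129). Srebf2, a regulator of cholesterol synthesis, fell by 0.58 (adjusted p = 0.0211). Srebf2 was at 0.49 to 0.81 with metformin and reached log2 1 only in controls 2 to 4, the 3 libraries needed for testing. Trp53 was at 0.63 to 1.06 with metformin and at 1.32 to 1.64 in these controls. Srebf2 was tested only, and Trp53 mainly, through the group where they were high, so the count of 4 is no support for a fall of the list. Of the leukocyte markers, 7 of 13 tested were lower in the same comparison and 0 of 11 were called against all controls, and their part in these 4 genes was not tested. The call of Txnip ended against all controls without control 5 or without any 1 of the metformin libraries, and against controls 2 to 4 without control 2, metformin 4 or metformin 5, with adjusted p up to 0.101 and 0.0752. That of Srebf2 ended without control 3 or 4 or metformin 3, 4 or 5 (adjusted p up to 0.0774), and with ribosomal centring none of the 4 calls against controls 2 to 4 held, with differences of -0.48 for Txnip, -0.0229 for Trp53, -0.0964 for Cdkn1b and 0.0901 for Srebf2. Atg9a, an autophagy protein, differed by 0.41 from all controls (adjusted p = 0.0881), and by 0.50 without control 2 (adjusted p = 0.0436). The list medians were -0.07 and -0.0029.

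Enzymes of adenine nucleotides make and remove the AMP that AMPK senses, and 9 of the 10 genes listed for them were measured. Nt5c3 is in this list although its enzyme acts mainly on pyrimidine nucleotides and not on AMP. Against all controls 2 of 5 tested rose and 0 fell, beside 4.21 percent of all genes higher, and against controls 2 to 4, 3 of 6 rose and 0 fell, beside 5.32 percent. In each comparison the called genes reached the minimum of log2 1 only in metformin libraries. They were thus tested only through the group where they were high, and these counts are no support for a rise of the list. Ampd1, the AMP deaminase of skeletal muscle, was at 1.74 to 2.30 with metformin and at 0.0229 to 0.106 in the controls, near the bottom of the table, so no fold is given. It was higher in both comparisons (adjusted p = 2.951e-06 and 7.594e-05). Ak1, the adenylate kinase abundant in muscle, was 1.55 higher than in controls 2 to 4 (SE 0.164, adjusted p = 0.000255) and 0.82 higher than in all controls (adjusted p = 0.201). The heart-rich controls 1 and 5 had Ak1 at 2.33 and 2.53, above the metformin range of 1.96 to 2.22, and controls 2 to 4 had it at 0.44 to 0.84. With the heart covariate, chosen after seeing the data, its difference from all controls was 1.63 (adjusted p = 0.000664 by limma). That covariate was high only in controls 1 and 5, so the fit is no separate result beside the comparison with controls 2 to 4. Adk, adenosine kinase, rose by 0.68 in both comparisons (adjusted p = 0.0268 and 0.0333). Its call ended against all controls without control 5 or metformin 1, 3 or 5, and against controls 2 to 4 without control 3 or 4 or metformin 1, 3 or 5, with adjusted p up to 0.0736 and 0.109. Nt5c3, a nucleotidase of red cells, was 2.44 higher than in all controls (SE 0.927, adjusted p = 0.127) and 0.88 higher than in controls 2 to 4 (adjusted p = 0.233). Fast skeletal muscle markers were higher with metformin in the same libraries, 13 and all 16 of 16 tested being called, and their part in Ampd1, Ak1 and Adk was not tested.

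**Figure D5:**
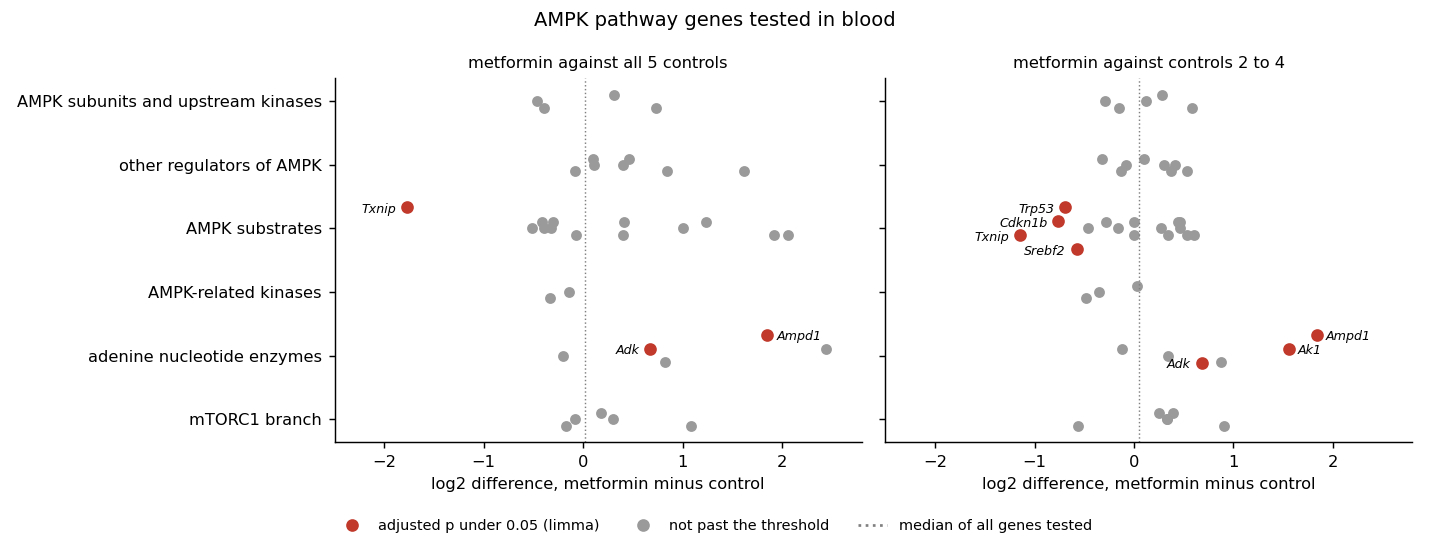
Log2 difference, metformin minus control, of each tested gene in the 6 lists, against all 5 controls (left) and controls 2 to 4 (right); filled red points passed an adjusted p of 0.05 and the dotted line is the median of all genes. The genes past the threshold are AMPK substrates, lower, and adenine nucleotide enzymes, higher.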

How the data were processed

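Blood RNA of 5 control and 5 metformin mice was compared, as the labels group them, and nothing says whether libraries of a group came from separate cages or days. The authors aligned reads with TopHat on a Bowtie index and computed expression with Cufflinks on GRCm38, per the methods and the submitters' processing notes. The deposited values are log2 FPKM, with an offset that is not stated; the methods name RPKM. Values at equal rank were almost identical in all libraries (largest SD at 1 rank 0.0399), the mark of quantile normalization, which the methods do not mention. Such values hide changes shared by most genes. Depth is unknown, so no counting intervals are given. Of the gene IDs 8897 matched the annotation and 7 did not.

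Genes with log2 of at least 1 in at least 5 of the 10 libraries (in at least 3 when controls 1 and 5 were left out) were tested with limma 3.58.1 in R 4.3.3 (lmFit, eBayes with trend). The Benjamini-Hochberg adjustment covered all genes tested, and the threshold was 0.05. Genes below the minimum were fitted with all 8904 genes. Named were all members, up to 6 called genes and the 3 smallest p-values of each list, and the 3 genes most like each tested member. Members and lists were chosen with earlier results of these data known. The scripts were tested on simulated data. Promoters came from RefSeq. Alternatives were the log offset, the minimum, centring, the variance model, a replicate block, leaving out each library, the threshold, and platelet and heart covariates chosen after seeing the data.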

Additional observations from a re-analysis of the deposited data

Results flagged for a closer look

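In 4 of the 54 groups of 5 libraries examined for the genes named here, 1 library stood far from the other 4 (gap over range above 0.71), and chance gives about 5 percent of groups. Prkab1 was at log2 2.05 in metformin 2, where the other metformin libraries were at 1.50 to 1.61. Prkag1 was at 0.47 in the same library, where the others were at 1.23 to 1.45. This library also had the lowest platelet marker mean of the metformin group, 0.58. Prkab2 was at 1.40 in control 3, where the other controls were at 0.31 to 0.37, and Ppp2ca was at 1.43 in the same library, where the others were at 0.78 to 0.93. Control 3 had the highest platelet marker mean of all libraries, 6.31. With the platelet covariate the differences from all controls were 0.22 for Prkab1, -0.58 for Prkag1 and 0.32 for Ppp2ca (adjusted p = 0.603, 0.165 and 0.275 by limma). The platelet-poor controls had Prkab1 at 0.91 to 1.71 and Prkag1 at 1.41 to 1.99. The part of platelet content, or of other differences between the libraries, in the single values named here was not tested.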

How the results depend on the processing

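Of 221 values of the members under alternatives, 201 kept direction and side of the threshold. Centring on 78 ribosomal protein genes moved the median difference of all genes to 0.84 against all 5 controls and 0.72 against controls 2 to 4. Under it 2 members (Prkab1 and Prkab2) and 3 members (Prkab1, Prkab2 and Stk11) of those tested passed, as did members below the minimum in the fit of all genes, Prkag2 (0.92 and 0.80) in both comparisons and Camkk2 (0.86) against all controls. There Prkag1 turned to 0.36 and 0.37, Stk11 to 0.43 against all controls and Camkk2 to 0.51 against controls 2 to 4, each close to or below that shift. The heart covariate turned Stk11 to 0.35 and Camkk2 to -0.17 against all controls, and the platelet covariate turned Camkk2 to -0.0523. Leaving out 1 library gave Camkk2 differences from -0.0402 to 0.15 against all controls and Prkab1 differences from -0.16 to 0.32 against controls 2 to 4. Without 1 library, members called ranged from 0 to 1 against all controls, the 1 being Prkab2 without control 3, and stayed at 0 against controls 2 to 4. The genes tested were not chosen anew there, and without control 3 Prkab2 reached log2 1 only in metformin libraries.

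Ribosomal centring also turned Trp53 (0.31), Cdkn1b (0.49), Snrk (0.49) and Mark2 (0.68) against all controls, and Srebf2 (0.0901), Snrk (0.31) and Mark2 (0.19) against controls 2 to 4. The calls of Txnip and Adk ended in several alternatives of both comparisons (Txnip was -0.48 against controls 2 to 4 with ribosomal centring), for example without metformin 5 (adjusted p = 0.101 for Txnip and 0.0716 for Adk against all controls). The cause was not tested.

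Genes called higher and lower against all controls, 145 and 107, were 60 and 13 with no minimum, 52 and 64 with a minimum of 2, 1845 and 19 with ribosomal centring, 264 and 206 at an adjusted p under 0.1, and 85 and 34 with the platelet covariate, and 266 were lower with the heart covariate. Leaving out 1 library gave 43 to 296 higher and 8 to 237 lower. Against controls 2 to 4, 214 and 422 became 89 and 170 with a minimum of 2, 1756 and 89 with ribosomal centring, and 143 to 227 and 274 to 432 without 1 library. There 344 were higher at an adjusted p under 0.1 and 445 with the platelet covariate.

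The labels do not say whether equal replicate numbers pair the mice. Same-numbered libraries had correlations of deviations from the group means of -0.18, 0.10, 0.08, -0.19 and -0.06. Differently numbered libraries were not set beside them, so these values cannot show whether the mice were paired. With the replicate block 29 genes were higher and 1 lower against all controls, and 93 and 135 against controls 2 to 4. The block left Txnip, Trp53, Cdkn1b, Srebf2 and Adk past the threshold in neither comparison, with adjusted p of 0.0654 for Trp53 and 0.0990 for Cdkn1b against controls 2 to 4. Depth per library is unknown, which limits what can be said of the low values of Prkag2, Camkk2 and Prkab2.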

Other observations

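Some AMPK-related genes, picked out after their values were seen, separated controls 1 and 5 from the remaining libraries more widely than any member did. Stradb, a pseudokinase partner of LKB1, was at log2 0.52 and 0.85 in controls 1 and 5, at 3.35 to 4.02 in controls 2 to 4 and at 3.95 to 4.35 with metformin. Its difference of 1.62 from all controls had an adjusted p of 0.152 by limma, and that of 0.41 from controls 2 to 4 one of 0.333. Mff, a mitochondrial fission factor phosphorylated by AMPK, was at 1.75 and 1.72 in controls 1 and 5, at 4.82 to 5.79 in controls 2 to 4 and at 5.71 to 6.03 with metformin. Becn1, an autophagy gene, was at 1.84 and 2.44, at 5.48 to 6.22 and at 5.99 to 6.71 in the same sets. The mean of the erythroid markers was also lowest in controls 1 and 5, at 0.47 and 1.63, where Mff was at 1.75 and 1.72. The part of erythroid content in these genes was not tested. Acacb, the acetyl-CoA carboxylase of heart and muscle, was instead highest in controls 1 and 5, at 1.78 and 1.99. It was at 0.14 to 0.26 in controls 2 to 4 and at 0.43 to 0.83 with metformin. Controls 1 and 5 were set apart by measured transcripts, so these differences were not tested.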
